A study of Mus musculus with 6 samples.

Results

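The regions described here are 162 stretches of open chromatin that lay close together in 46 loci and were all less open in cells without C/EBPα and C/EBPβ. They were chosen by measured values: neighbouring rows of the authors' table of changed regions were joined into a chain where 12.5 kb or less separated them, and a chain was kept if it held at least 3 regions and every one had a lower group mean in dKO than in WT. The table listed 10016 regions, 3981 of which (39.7%) were lower in dKO. Chains of 3 or more regions numbered 241, and 46 of them (19.1%) were lower throughout. The sign of the difference therefore comes from the rule and is no finding about these loci, and the differences below are a description without a test.

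The cells were mouse fetal liver cells that MLL-ENL, a leukaemia fusion oncoprotein, had transformed, and they were assayed by ATAC-seq after growth in 10 ng/ml of IL-3. WT cells, wild-type by their label, came per the study from mice with loxP-flanked alleles (Cebpa fl/fl, Cebpb fl/fl). The dKO cells carried the labels Cebpa KO, Cebpb KO and GFP and were clones, so that genotype, vector and clonal differences cannot be told apart. The other group, dKO cells with the rat C/EBPβ isoform LAP*, was not analysed here. Each group had 2 libraries of 50000 sorted cells, and the table gives the mean of each group without values per library, so no difference carries an SD.

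C/EBPα and C/EBPβ are basic leucine zipper transcription factors of the myeloid lineage. They bind DNA as dimers and can open chromatin at enhancers together with other factors, among them PU.1 and AP-1. In ATAC-seq the Tn5 transposase inserts adapters where DNA is open, and the reads over a region measure its accessibility. Several enhancers of 1 gene often lie within a few kilobases of each other, and 12.5 kb is a distance commonly used to join them into clustered enhancers.

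All values are log2 normalised reads (the group mean on the log2 scale), or sums of normalised reads over the regions of a locus on the linear scale. Differences are dKO minus WT, so that -1 is a 2-fold lower level. The lowest level in the table was -0.15 in both groups, and 225 of the 281 dKO values of 3 normalised reads or less (80.1%) lay within 0.05 of a step from a whole number of steps of 0.451 normalised reads, the share of the mean that a single read takes. In WT 67 of 267 (25.1%) did, so that the steps serve for the dKO level only. A level of 3 reads in each library then corresponds to 1.43 on the log2 scale and is used as a floor below which the depth of a loss cannot be read. Of the 162 regions, 16 in 8 loci were at or under this floor in dKO, and 6 of these were at -0.15. The same lowest level was found at the deleted genes themselves: the listed region in Cebpa measured 9.99 in WT and -0.15 in dKO, and those in Cebpb measured 8.60 and 7.38 in WT and 3.37 and -0.15 in dKO. Fewer reads from closed chromatin and fewer reads from missing DNA cannot be told apart in these values.

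The sequences that follow are examples from these loci, chosen in part for their contrast. Each is the plus strand of mm10 (GRCm38.p6) over the central 200 bp of a region, with C/EBP motif matches (TTGCNNAA or TTACNNAA on either strand) in capitals. The first 3 are the regions of highest WT level in their loci, and the last of them holds 2 matches. In 12 of the 46 loci the region of highest WT level held a match. Afap1 and Hpgd are among the loci with the most regions, and Sdr42e1 was added as a contrast after its matches were seen. The last 2 are the region with the deepest fall and the region with the most matches among all members, and were picked after their values were seen.
Afap1 promoter region, chr5:35893280-35893479: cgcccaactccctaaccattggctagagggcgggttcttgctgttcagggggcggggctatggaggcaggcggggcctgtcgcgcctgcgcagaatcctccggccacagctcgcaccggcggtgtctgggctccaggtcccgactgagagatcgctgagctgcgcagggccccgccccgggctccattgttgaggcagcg
Hpgd promoter region, chr8:56294550-56294749: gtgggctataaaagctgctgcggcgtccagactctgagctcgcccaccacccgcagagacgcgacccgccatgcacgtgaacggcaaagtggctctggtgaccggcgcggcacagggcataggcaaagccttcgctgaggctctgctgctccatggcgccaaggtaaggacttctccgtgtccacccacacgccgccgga
Sdr42e1 region 3, chr8:117684038-117684237: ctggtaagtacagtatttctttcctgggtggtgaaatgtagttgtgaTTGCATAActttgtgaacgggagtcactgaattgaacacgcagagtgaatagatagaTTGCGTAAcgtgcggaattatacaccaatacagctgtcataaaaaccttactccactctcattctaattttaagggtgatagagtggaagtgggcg
Afap1 intronic region, chr5:35901321-35901520: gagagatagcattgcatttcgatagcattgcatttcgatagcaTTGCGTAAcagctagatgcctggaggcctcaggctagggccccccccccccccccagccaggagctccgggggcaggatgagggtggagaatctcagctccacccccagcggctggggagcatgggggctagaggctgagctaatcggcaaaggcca
Bcl11a last region, chr11:24135514-24135713: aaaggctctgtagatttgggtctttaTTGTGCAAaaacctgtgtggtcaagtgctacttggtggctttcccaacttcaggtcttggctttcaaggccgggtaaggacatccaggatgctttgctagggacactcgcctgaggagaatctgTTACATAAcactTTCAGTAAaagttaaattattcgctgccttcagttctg
The promoter windows of Afap1 and Hpgd held no C/EBP match, the Sdr42e1 window held 2, the intronic Afap1 window held 1 and the intronic Bcl11a window held 3.

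In 2 loci, chosen after their values were seen, every region held a match. At the locus nearest Tle4, a gene for a Groucho co-repressor, the matches with their flanks were as follows, and the 3 regions differed by -2.75, -2.91 and -2.95.
Tle4 region 1, chr19:14827871-14827890: gagcaaTTGCATAAcaagaa
Tle4 region 2, chr19:14833545-14833564: agtataTTACTAAAcacctc
Tle4 region 3, chr19:14837689-14837708: gctgagTTGCACAAtcttcc
At the locus nearest Glrx5, a mitochondrial glutaredoxin gene of iron-sulphur cluster assembly, 4 matches lay in 3 regions, which differed by -2.51, -2.43 and -1.16.
Glrx5 region 1, chr12:105060051-105060070: tgttctTTGAGCAAcagaga
Glrx5 region 1, neighbouring match, chr12:105060074-105060093: gaggagTTGGGTAAgactag
Glrx5 region 2, chr12:105064027-105064046: gcaggaTTGTGCAAtcttaa
Glrx5 region 3, chr12:105069274-105069293: aggctgTTGCAAAAcaactt
Letters of this kind describe the sequence and do not show that a factor bound there.

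The 46 loci were mostly short and spread over the genome. They held 3 regions in 31 cases, 4 in 11, 6 in 3 and 7 in 1. Their span from the first base to the last had a median of 13306 bp and ranged from 1491 to 30038 bp. They lay on 19 chromosomes, with 6 on chromosome 12 and 5 on chromosome 8. A protein-coding gene was overlapped by 26 loci and none by 20. In 13 loci every region was intergenic, in 11 every region was intronic, and 20 loci included a region within 1 kb of a start site.

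The depth of the loss varied widely between loci. The difference had a median of -2.22 over the 162 regions, with quartiles of -3.01 and -1.68, and the smallest fall was -0.61, nearest Oxgr1. The deepest, in Afap1, was -6.78 as listed, and the level there fell by at least 5.20 when dKO is set to the floor. It was at or below -1 in 157 regions and at or below -2 in 99. For comparison, the 3819 lower regions outside these loci had a median of -1.83, in a table that holds no region that the authors did not call changed. Summed over a locus, the WT level had a median of 274 normalised reads (108 to 1213) and the dKO level a median of 61.1 (12.1 to 502). The share of the WT sum kept in dKO had a median of 22.4% and ranged from 3.84% to 59.6% as listed. In the 8 loci with regions at or under the floor such a share cannot be read exactly, and with those dKO levels set to the floor the lowest share was 4.70%. It was under 25% in 26 loci, from 25% to 50% in 18 and at least 50% in 2.

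**Figure D1:**
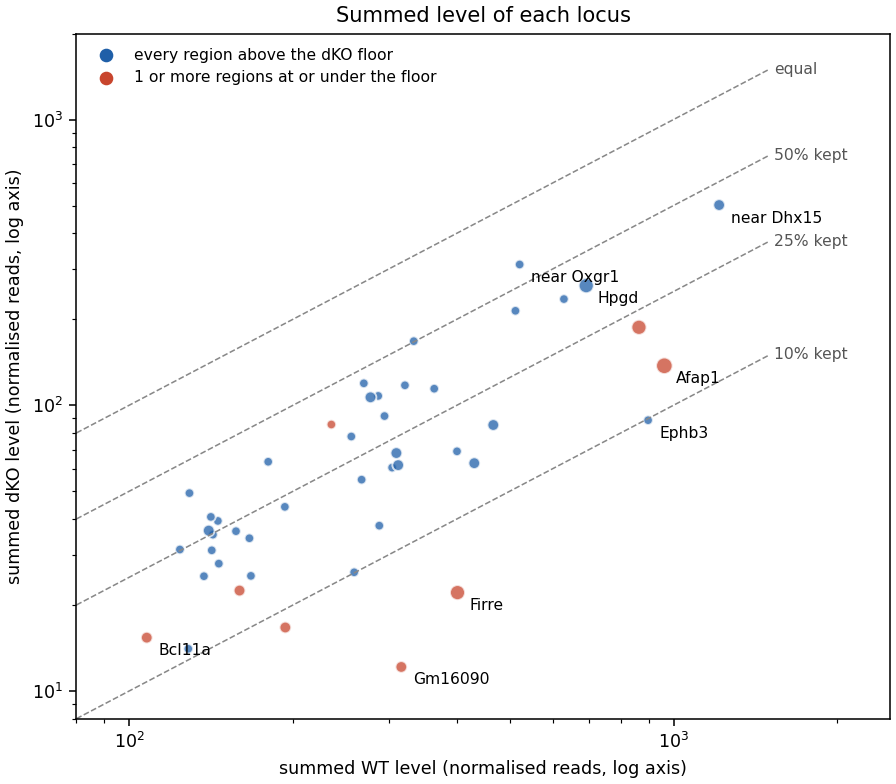
Summed level of the regions of each locus in WT (x axis) and dKO (y axis), in normalised reads on log axes; 1 point per locus, larger for loci with more regions, and dashed lines mark the share of the WT level kept. All 46 points lie under the line of equal levels, as the rule requires, and those with regions at or under the dKO floor (red) include the 2 lowest shares, 3.84% in Gm16090 and 5.51% in Firre as listed (4.70% and 7.31% with dKO set to the floor).

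Regions of 1 locus did not fall by the same amount. The gap between the largest and the smallest difference within a locus had a median of 1.12 with dKO levels under the floor set to it, and reached 3.07 around Sox12 and 2.99 in Afap1. The region with the highest WT level fell least in 22 of the 46 loci and most in 10. It held a median of 48.0% of the summed WT level of its locus, from 26.5% nearest Inhbb to 92.6% in Ephb3. Of the 10 loci with exactly 1 region near a start site, that region fell least in 3. None of these counts was set against the one expected from 3 to 7 regions per locus. The table also holds changed regions only, and the part of this was not tested.

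**Figure D2:**
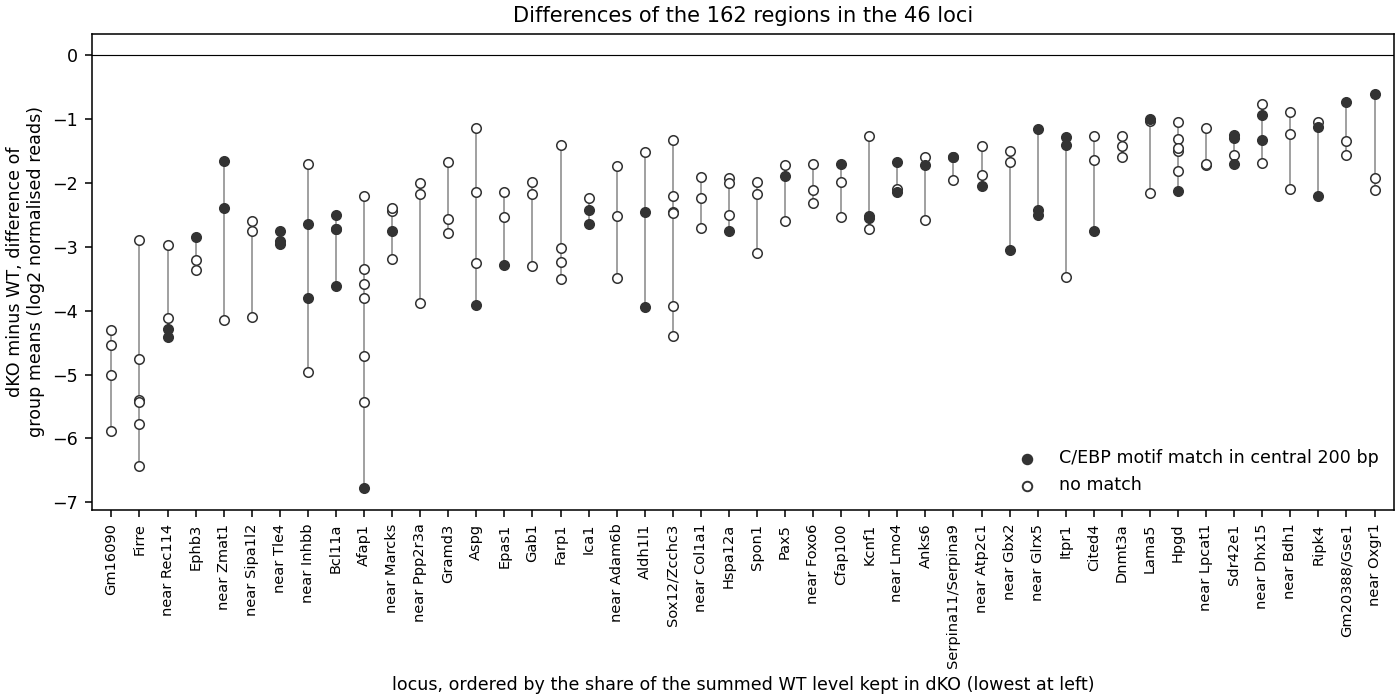
Difference of the group means (dKO minus WT, log2 normalised reads) of each of the 162 regions, by locus, ordered by the share of the WT level kept; filled points hold a C/EBP motif match in their central 200 bp and grey lines join the regions of a locus. Values under the dKO floor are plotted as listed; the deepest is -6.78 in Afap1, the rightmost, nearest Oxgr1, lies between -2.11 and -0.61, and filled points occur over the whole range.

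The chain with the most regions lay in Afap1, which encodes an actin filament-associated adaptor protein that binds Src kinase. Its 7 regions spanned 25.6 kb at chr5:35888958-35914550, running from upstream of the start site into the introns. The promoter region was the most open, at 9.05 in WT and 6.84 in dKO. The region upstream of it measured 6.23 in WT and 2.43 in dKO. The 5 intronic regions all fell further than the promoter. In order, they measured 6.37, 5.88, 6.63, 5.28 and 6.27 in WT and 1.66, 2.30, -0.15, -0.15 and 2.93 in dKO. The third of them, with the C/EBP match shown above, was at least 36.6-fold lower in dKO when set against the floor, and the fourth at least 14.4-fold lower. The locus kept 14.3% of its summed WT level as listed (14.7% at the floor), and all 6 listed regions within 100 kb of it that were not in the chain were lower in dKO too.

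A chain of 6 regions on the X chromosome had 5 regions under the floor in dKO. It lay at chrX:50602928-50620354 in introns of Firre, a long non-coding RNA with repeated sequence domains that acts in nuclear organisation, and its nearest protein-coding start site was that of Olfr1324, an odorant receptor gene 174430 bp away. In WT the regions measured 5.83, 5.28, 5.94, 5.62, 6.28 and 6.87. In dKO the same regions measured 0.43, -0.15, 1.18, -0.15, -0.15 and 3.98, so that only the last was above the floor. The sum kept 5.51% of its WT level as listed and 7.31% with dKO set to the floor. No region held a C/EBP match in its central 200 bp. The sequences are related to each other: the most similar pair shared 44.6% of the 20-letter words of the shorter region, and reads that fit several repeats can be placed at any of them, the part of which was not tested.

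Another 6 regions spanned 23.9 kb at chr2:152391210-152415122 around Sox12, which encodes a SOXC transcription factor, and Zcchc3, which encodes a nucleic acid-binding zinc finger protein. The region 6553 bp downstream of the Sox12 start measured 4.77 in WT and 0.84 in dKO, which is under the floor. The exonic region measured 6.70 in WT and 2.30 in dKO. The pair of Sox12 promoter regions measured 7.16 and 8.28 in WT and 4.96 and 5.82 in dKO. The falls in and past the gene body were thus deeper than those at the promoter. The region 8001 bp upstream of Sox12 measured 7.62 in WT and 6.29 in dKO, and the Zcchc3 promoter region measured 6.36 and 3.89. No region held a C/EBP match over its whole length, and the locus kept 21.7% of its WT level as listed (21.8% at the floor).

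Hpgd, which encodes the dehydrogenase that inactivates prostaglandins, carried 6 regions over 28.5 kb at chr8:56294355-56322898. Here no region came near the floor. The promoter region measured 8.06 in WT and 6.74 in dKO. The 4 intronic regions measured 7.37, 5.68, 6.06 and 6.59 in WT and 6.32, 4.18, 4.24 and 4.47 in dKO. The last region, in repeat sequence beyond the gene, measured 5.48 and 4.02. The differences lay between -2.12 and -1.05, and the locus kept 37.9%. The nearest listed region outside, 15554 bp away, was higher in dKO, by 1.51.

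**Figure D3:**
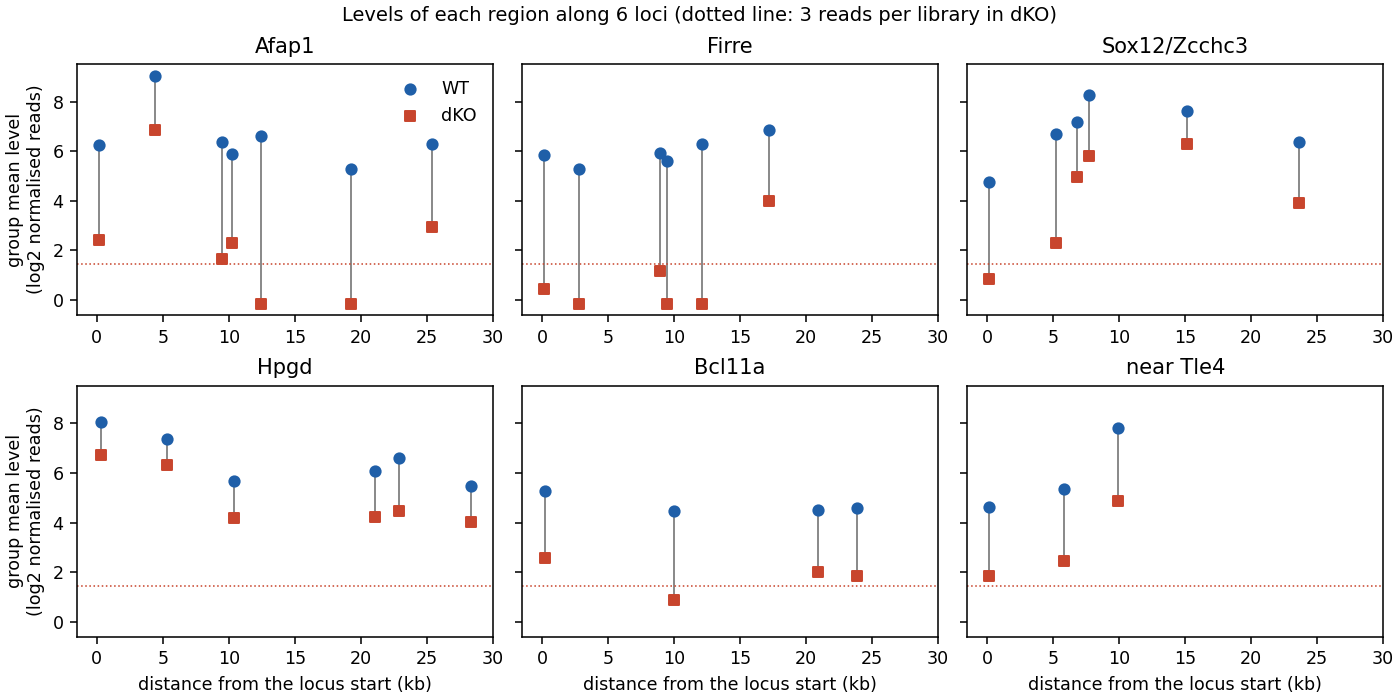
Group mean level of each region (log2 normalised reads; blue circles WT, red squares dKO) against its distance from the start of the locus, for 6 loci; the dotted line is the level of 3 reads per library in dKO and no error can be drawn from group means. Afap1 and Firre reach the lowest dKO level of -0.15, whereas every region of Hpgd stays at 4.02 or above.

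The locus with the highest summed WT level contained no protein-coding gene. Its 4 regions at chr5:52112815-52122534 lay about the non-coding Gm43177, and the nearest protein-coding start, 35269 bp away, was that of Dhx15, an RNA helicase of splicing. They measured 7.86, 9.32, 7.97 and 6.50 in WT and 7.10, 7.63, 7.03 and 5.17 in dKO. The differences were small, from -1.69 to -0.76, yet the summed level fell from 1213 to 502 normalised reads, a larger loss in reads than at all but 2 loci. The locus kept 41.4%.

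Ephb3, a receptor tyrosine kinase for ephrin-B ligands, had the most open single region of all members. Its promoter region measured 9.70 in WT and 6.33 in dKO. The second region, at another start site of the gene, measured 5.06 and 1.86, and the third, 6458 bp past a start site, measured 5.04 and 2.19. The 3 differences, -3.37, -3.20 and -2.85, were close to each other over 24.2 kb, and the locus kept 9.87%. This was the lowest share among loci with every dKO level above the floor.

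In Dnmt3a, which encodes a de novo DNA methyltransferase often mutated in leukaemia, 3 regions within 1918 bp surrounded a start site. They measured 8.47, 7.11 and 7.09 in WT and 7.05, 5.52 and 5.83 in dKO. Their gaps were only 102 and 96 bp. Chains as tight as this were also seen in Pax5 and nearest Bdh1, with spans of 1491 and 1713 bp.

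Bcl11a was the only 1 of a list of 24 genes, taken from those the study names, that had such a locus, while 35 of all 21924 protein-coding genes (0.160%) had one within 10 kb. A single gene of a list this short is no result about the list. Bcl11a encodes a zinc finger transcription factor of lymphoid development that represses fetal globin genes. Its 4 intronic regions at chr11:24111777-24135785 measured 5.28, 4.47, 4.51 and 4.58 in WT, the lowest summed WT level of all loci. In dKO they measured 2.56, 0.86, 2.01 and 1.86. The second was under the floor. C/EBP matches were held by 3 of the 4 regions, with 2, 1 and 3 matches in order, and both other listed regions within 100 kb were lower in dKO as well. The locus kept 14.3% of its WT level as listed and 15.1% with dKO set to the floor.

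Pax5, the determinant of B cell identity, was the other listed gene with a locus, 1 of 16 lymphoid markers, which is likewise a single gene. Its regions at chr4:44564647-44566137 in 1 intron measured 5.58, 5.14 and 6.21 in WT and 3.86, 3.25 and 3.61 in dKO. The middle one held a C/EBP match. A locus without a protein-coding gene, picked after its values were seen, lay at chr12:113424308-113427680 in the immunoglobulin heavy chain cluster, with its last region 887 bp from the start of the joining segment Ighj4. Its 3 regions measured 6.38, 6.15 and 6.82 in WT and 3.86, 2.66 and 5.09 in dKO. Its first region was 95.8% repeat sequence and the most similar pair shared 37.6% of their words.

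Among the long loci, Aspg, which encodes an asparaginase, had 4 regions over 30.0 kb at chr12:112096217-112126254. They measured 6.34, 4.81, 6.69 and 7.99 in WT and 2.43, 2.66, 5.55 and 4.74 in dKO. The promoter region, the third, fell least, by 1.14, and the upstream region with 2 C/EBP matches fell most, by 3.91. Kcnf1, a subunit gene of voltage-gated potassium channels, had 4 regions over 24.5 kb at chr12:17159459-17183990. These measured 4.58, 5.76, 5.37 and 4.36 in WT and 2.03, 4.49, 2.65 and 1.84 in dKO. The 2 outermost regions held C/EBP matches, and the promoter region fell by 2.72, the most of the 4.

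Deep losses were also found at loci that overlapped no protein-coding gene. The chain nearest Rec114, a meiotic recombination gene, lay at chr9:58748188-58755635, starting 4224 bp upstream of it. Its 4 regions measured 5.73, 6.46, 4.86 and 4.55 in WT and 1.45, 3.49, 0.44 and 0.44 in dKO, so that the last 2 were under the floor. It kept 8.62% as listed and 10.0% with dKO set to the floor. The chain nearest Inhbb, the inhibin βB gene, 119585 bp from its start, measured 5.40, 5.25, 5.39 and 5.22 in WT and 2.75, 3.55, 0.43 and 1.42 in dKO. The 4 regions were alike in WT, and in dKO the last 2 were under the floor, so that their spread was at least 2.12 log2 units.

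The chain nearest Sipa1l2, a gene for a Rap GTPase-activating protein, lay 94426 bp from its start and measured 5.96, 4.95 and 5.14 in WT and 1.86, 2.19 and 2.55 in dKO. No region had a C/EBP match and the locus kept 10.9%. The chain nearest Zmat1, a zinc finger gene on the X chromosome, measured 4.41, 5.03 and 7.68 in WT and 2.02, 3.37 and 3.54 in dKO. Its last region alone held 79.2% of the summed WT level and fell most, by 4.14, while the first 2 were over 50% repeat sequence.

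The lowest share of all, 3.84% as listed and 4.70% with dKO set to the floor, was that of 4 intronic regions of the non-coding Gm16090 at chr18:20617118-20629159. They measured 6.97, 6.33, 5.73 and 5.84 in WT and 2.43, 2.02, -0.15 and 0.84 in dKO. Between 85.1% and 95.2% of each was repeat sequence, and the most similar pair shared 54.7% of their words. Of the 5 other listed regions within 100 kb, 2 were lower in dKO and 3 higher.

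Sdr42e1, a short-chain dehydrogenase gene, lent its name to 4 regions over 19.9 kb at chr8:117672607-117692471 that ended 9433 bp upstream of Hsd17b2, a steroid dehydrogenase gene. They measured 5.65, 5.50, 6.99 and 5.78 in WT and 3.94, 3.94, 5.74 and 4.49 in dKO. The differences were among the most even, from -1.71 to -1.25. With 6 matches over the whole regions, at least 1 in each, it was among the 5 loci with a C/EBP match somewhere in every region.

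Of the remaining 29 loci, those given here were picked after their values were seen. In Gab1, an adaptor of receptor tyrosine kinases, the regions measured 4.74, 6.23 and 5.47 in WT and 2.75, 4.06 and 2.17 in dKO. In Itpr1, the IP3 receptor, they measured 5.51, 4.90 and 7.32 in WT and 4.10, 1.42 and 6.04 in dKO. The second Itpr1 region was just under the floor in dKO. Within both of these genes the differences spanned more than 1 log2 unit. In Lama5, a laminin chain, they lay between -2.16 and -1.

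The regions in Epas1, which encodes the hypoxia factor HIF-2α, were all intronic. They measured 5.18, 6.13 and 4.95 in WT and 2.65, 3.98 and 1.66 in dKO, and each held a C/EBP match somewhere in its length. The regions at Cited4, a CBP/p300-interacting co-activator, measured 5.41, 7.86 and 5.53 in WT and 2.65, 6.59 and 3.89 in dKO. The upstream region with the C/EBP match fell by 2.76, and the promoter pair by 1.27 and 1.64.

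The distal chain nearest Marcks, a substrate gene of protein kinase C 463893 bp away, measured 7.36, 6.29, 7.03 and 5.84 in WT and 4.17, 3.85, 4.28 and 3.44 in dKO. It kept 14.6% with every region above the floor. At the other end, the chain nearest Oxgr1, a receptor gene for 2-oxoglutarate, kept 59.6%. Its first region measured 8.80 and 8.19, and the others measured 5.35 and 5.13 in WT and 3.43 and 3.02 in dKO. The chain in Gse1 kept 50.3%, with differences of -1.35, -0.74 and -1.57.

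The loci were also set against lists of genes of myeloid and other blood cells. No locus lay within 10 kb of any of 30 neutrophil, 31 monocyte and macrophage, 29 cytokine receptor, 42 haematopoietic transcription factor, 23 inflammatory, 14 erythroid and megakaryocyte or 10 mast cell and basophil genes, nor of the 7 genes of the C/EBP family. Of all 21924 protein-coding genes, 35 (0.160%) had a locus that near, so that a count of 0 for lists this short is no result about them. The labelled cell type could be checked only where regions were listed: listed regions lay at 5 of 7 myeloid progenitor, 1 of 4 monocyte or macrophage, 1 of 4 neutrophil, 1 of 3 lymphoid, 0 of 3 erythroid and 0 of 3 mast cell markers. Among all protein-coding genes, 11.5% had a lower and 15.5% a higher region within 10 kb. At the myeloid progenitor markers 1 region was lower and 5 were higher. At the monocyte or macrophage markers 0 were lower and 3 higher, at the neutrophil markers 0 and 1, and at the lymphoid markers 4 and 0. A listed region says that openness changed there and not how open the gene was.

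Losses extended beyond the chains. Within 100 kb of a locus the table listed 78 regions more than 12.5 kb away that were not in it. Of these, 6 were members of another of the loci and thus lower by the rule. Of the other 72, which the rule had not chosen, 65 (90.3%, 95% Wilson interval 81.3 to 95.2) were lower in dKO. The intervals in this text cover counting only, and neighbouring regions share their surroundings and are not replicates. The number of listed regions within 100 kb had a median of 1 per locus and a lower quartile of 0. At any distance, the nearest listed region outside was lower for 41 loci and higher for 5, and it lay up to 622969 bp away (Firre). Of the higher ones, that of Hpgd lay 15554 bp away, and those of Dhx15, Rec114, Kcnf1 and Epas1 lay over 100 kb away. Unchanged regions are not listed at any distance. Around the regions that were lower on their own, without a listed neighbour within 12.5 kb, 60.2% of the regions within 100 kb were lower (58.5 to 61.9, n = 3168). Around chains of 2 lower regions the share was 78.4% (74.3 to 82.0, n = 426), and around chains higher throughout, with members of other such chains left out, it was 16.6% (12.9 to 21.1, n = 314). The counts around single regions and chains of 2 include neighbours of the same kind, which are lower by definition. The interval of the 46 loci overlapped that of chains of 2 and lay above that of single regions. By distance, the share beside the loci was 94.1% up to 25 kb (16 of 17), 100% from 25 to 50 kb (17 of 17) and 84.2% from 50 to 100 kb (32 of 38).

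**Figure D4:**
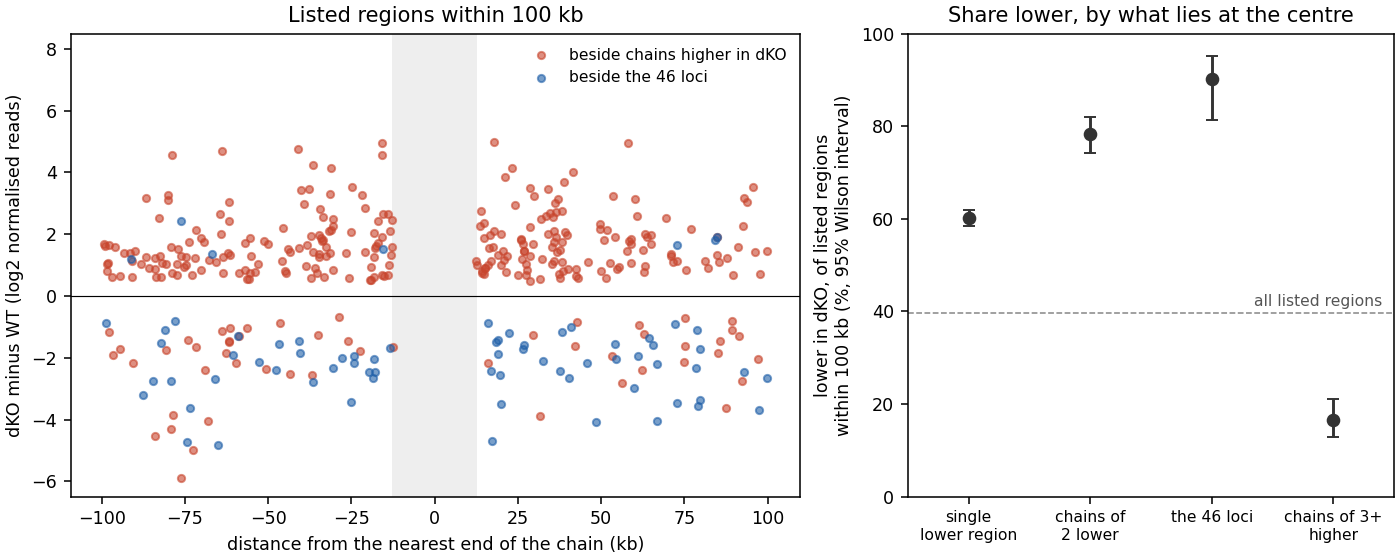
Left, difference (dKO minus WT, log2 normalised reads) of listed regions against their distance from the nearest end of the chain, beside the 46 loci (blue) and beside chains higher in dKO throughout (red), without regions of other such loci or chains and with the 12.5 kb used by the rule in grey; right, the share of these regions that was lower, with 95% Wilson intervals, and the dashed line at the 39.7% of all listed regions. The share is 60.2% beside single lower regions, 78.4% beside chains of 2 (both with neighbours of the same kind included), 90.3% beside the loci and 16.6% beside chains higher throughout.

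C/EBP motifs were present in the loci, at a lower share than in other lower regions. In the central 200 bp, 50 of the 162 regions held a match (30.9%, 24.3 to 38.4), against 1574 of the 3819 lower regions outside (41.2%, 39.7 to 42.8). Over all 10016 listed regions, lower and higher, the share was 28.4% (27.5 to 29.2), which lay within the interval of the members. In windows of the same length 2 kb to either side of the members the share was 16.7% (12.98 to 21.3), and in regions of chains higher throughout it was 19.6% (16.6 to 22.9). The members were thus above the sequence beside them and under the other lower regions, without overlap of the intervals. By chain size the share was 42.5% in single lower regions (40.8 to 44.3), 31.6% in chains of 2 (27.7 to 35.7) and 30.9% in these loci, so that the latter 2 did not differ beyond counting.

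Matches were unevenly placed. Of the members, 2 of the 33 within 1 kb of a start site held a match (6.06%, 1.68 to 19.6), against 48 of the 129 others (37.2%, 29.4 to 45.8). In the lower regions outside, the shares were 22.0% of 788 near start sites (19.2 to 25.0) and 46.2% of 3031 elsewhere (44.5 to 48.0). The share of regions near start sites itself was alike in members and other lower regions, at 20.4% (14.9 to 27.2) and 20.6% (19.4 to 21.9). Members with a match had a median difference of -2.43 and those without of -2.19, with quartiles of -2.76 and -1.62 against -3.21 and -1.69, so that the quartile ranges overlapped. In the 16 loci with a match in exactly 1 region, that region fell most in 8. This count was not set against the one expected from the number of regions per locus.

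**Figure D5:**
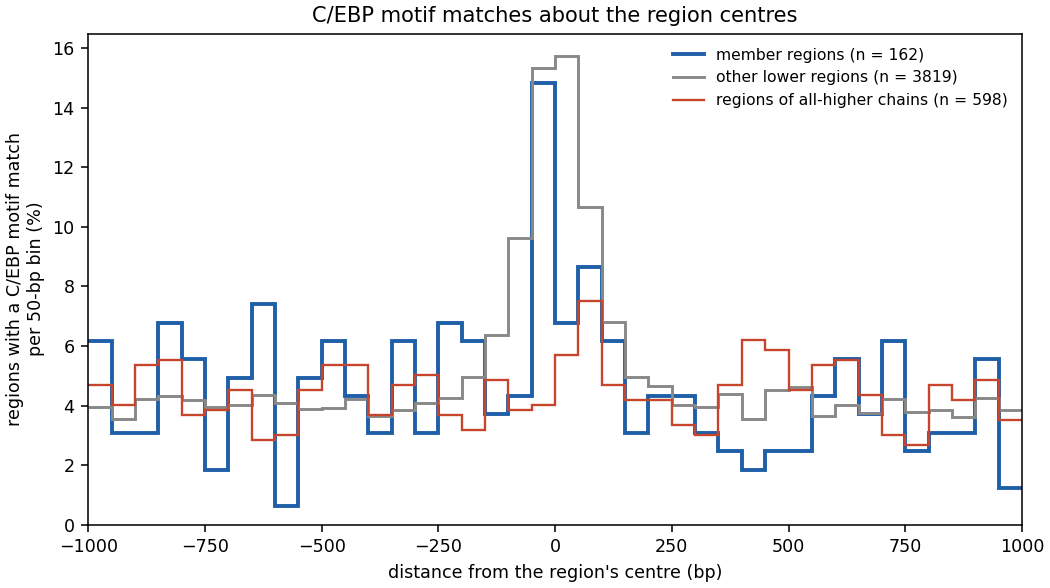
Share of regions with a C/EBP motif match in each 50-bp bin, against distance from the region's centre, for the 162 members (blue), 3819 other lower regions (grey) and 598 regions of chains higher in dKO throughout (red). Members peak at 14.8% just left of the centre, and with 162 regions 1 region moves a bin by 0.617 percentage points, which limits the comparison bin by bin.

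Counted by locus, 31 of the 46 (67.4%, 53.0 to 79.1) had a match in at least 1 region and 15 (32.6%, 20.9 to 47.0) in at least 2. Chains higher throughout had a match in at least 1 region in 89 of 168 (53.0%, 45.4 to 60.4) and in at least 2 in 24 (14.3%, 9.79 to 20.4). The remaining 15 loci, Sox12 and Firre among them, had none in the central windows.

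Motifs of other myeloid factors were found in few members and few other lower regions. The AP-1 motif TGACTCA was found in 6.17% (3.39 to 11.0), the PU.1 motif GAGGAAGT in 4.94% (2.52 to 9.44) and the RUNX motif AACCACA in 6.17% (3.39 to 11.0). In the lower regions outside the loci the shares were 4.61% (3.99 to 5.32), 3.27% (2.75 to 3.89) and 9.16% (8.29 to 10.1), with intervals that overlapped those of the members. The same motifs were found in 22.2% (19.1 to 25.7), 13.5% (11.0 to 16.5) and 13.5% (11.0 to 16.5) of the regions of chains higher throughout. The HOXA9 motif TGATTTAT occurred in 1.23% of members, and the GATA motif AGATAA in 1.85% (0.632 to 5.30), under the 10.3% (7.38 to 14.2) of the windows beside them and the 6.52% (5.78 to 7.35) of the lower regions outside, without overlap of the intervals. Over all 10016 listed regions these shares were 17.9% for AP-1, 9.22% for PU.1, 11.9% for RUNX, 1.25% for HOXA9 and 7.52% for GATA.

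In width and base composition the members resembled other lower regions. Their width had a median of 363 bp (quartiles 308 and 505) against 394 bp (327 and 517). Their GC content had a median of 51.0% (47.3 and 56.1) against 50.1% (46.1 and 54.6), and their WT level a median of 5.89 (5.28 and 6.79) against 5.93 (5.28 and 6.73). All 3 quartile ranges overlapped almost fully. The dKO level was at or under the floor in 9.88% of members (6.17 to 15.4) and 5.73% of the others (5.04 to 6.52). Repeats made up over 50% of 9 members (5.56%, 2.95 to 10.2), against 2.51% of the other lower regions (2.06 to 3.06) and 5.46% of all listed regions, and in 42 loci no pair of regions shared as much as 1% of its words.

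The members were 4.07% of all 3981 lower regions (3.50 to 4.73), and 598 of the 6035 higher regions, 9.91% (9.18 to 10.7), were in 168 chains higher throughout. Chains of 1 sign form more readily for the more common sign, so these shares are not compared. At the edge of the rule, the widest gap inside a locus was 12467 bp, in Aldh1l1, and the narrowest gap to a listed region left out was 13316 bp, beside Ripk4, where that region differed by -1.68. The smallest fall inside was -0.61, nearest Oxgr1. A total of 263 chains of 2 lower regions fell short by 1 region, and 4 chains of 3 held a single higher region, with a difference of 1.50 to 2.95.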

How the data were processed

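ATAC-seq of MLL-ENL-transformed mouse fetal liver cells was compared between WT and dKO (2 libraries each). The authors preprocessed reads with PiGx, used Bowtie 2 for alignment to mm10 and MACS for peaks, and compared groups with DiffBind (2.14.0 per the labels) at a corrected P-value cutoff. Duplicate handling, the Tn5 offset and the merging of peaks were not given in the sources used here. Retained duplicates raise the level of strongly amplified regions, and a missing offset moves edges by a few bases. Both of the 2 deposited files held the same table, with values for WT and dKO, and dKO-LAP* cells were not analysed here.

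The authors' deposited log2 values are log2 means of normalised reads over both groups, over WT and over dKO. The mean over both groups matched the group means to within 0.00951. The table also holds the authors' fold change, p-value and false discovery rate per region, which were not used. It lists changed regions only, which leaves no unchanged regions to compare with, and the depth per library is unknown.

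Rows were sorted by position and chained at gaps of 12.5 kb or less. Chains of 3 or more regions with every difference (dKO minus WT) below 0 gave the members. No test was run, since the rule used this contrast and no value per library was at hand. Sums are of 2 to the power of the log2 level, and folds were set against the floor of 3 reads per library. Genes and start sites came from GENCODE M21 and sequence from GRCm38.p6 (mm10). A region was assigned to a promoter within 1 kb of a start site, then to an exon, an intron or intergenic sequence. Motifs were searched on both strands in the central 200 bp and in windows 2 kb to either side. Shares carry 95% Wilson intervals. Words of 20 letters were compared between regions of a locus on either strand.

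The loci named were the 8 with the most regions (ties in genome order), the 6 with the largest summed loss, the 6 with the lowest summed ratio among loci whose summed dKO level was above the floor, the 6 longest and those within 10 kb of a listed gene, 17 in all. Others are marked as picked after their values were seen, or are named only for an extreme span, gap or difference. The members, lists and rules were chosen with earlier results of these data known. Alternatives were other gaps, sizes, limits and motif windows. Chaining, motif search and start-site distances were tested on simulated data. Python 3.11.15, pandas 2.3.3, numpy 2.4.6, scipy 1.17.1 and matplotlib 3.10.9 were used.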

Additional observations from a re-analysis of the deposited data

How the results depend on the processing

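The number of loci depended on how chains were built: from 46, it went to 18 with gaps of up to 5 kb, 107 with gaps of up to 25 kb, 15 with at least 4 regions, 309 with at least 2 regions, and 18 when regions in the lower quartile of the mean level were left out. It was 42 with every difference at or below -1 and 47 with differences centred on the median of all listed regions. The share of members with a C/EBP match went from 30.9% to 44.4% over whole regions and to 22.8% with TTGCNNAA alone. It was 29.0% and 32.1% in loci built with gaps of up to 5 kb and 25 kb. In 2 alternatives chosen after seeing the data, it was 31.0% without loci of mostly repeat sequence and 31.4% on autosomes. The median difference was -2.15 over members above the floor, and 16.0% of members lay within 1 kb of a start site when only protein-coding genes were counted. No paired analysis was possible because the values used here are group means, with none per library, and leaving out a replicate was not run for the same reason. Without values per library, no difference can be set against the spread between replicates, and the depth of a loss below 3 reads per library cannot be read.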

Other observations

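The chains with the opposite sign had another motif content than the loci described above. Of the 168 chains that were higher in dKO throughout, 94 (56.0%, 48.4 to 63.2) had an AP-1 motif in at least 1 region and 66 (39.3%, 32.2 to 46.8) a PU.1 motif, against 9 (19.6%, 10.7 to 33.2) and 8 (17.4%, 9.09 to 30.7) of the 46 loci. Chains of 3 regions made up 118 of the 168 and 31 of the 46. A further 27 chains of 3 or more regions held both lower and higher regions.

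The 4 chains that missed the rule by a single higher region lay nearest Osbp2, an oxysterol-binding protein gene, Cdc42ep4, an effector gene of the GTPase Cdc42, Cxxc5, a zinc finger gene, and Zbtb10, a BTB zinc finger gene. At Cxxc5 the higher region measured 3.70 in WT and 6.65 in dKO beside 2 regions that differed by -1.87 and -2.26. At Zbtb10 it measured 3.14 and 5.04 beside differences of -2.03 and -2.96. These were named after their values were seen.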
